A study of Mus musculus with 12 samples.

Results

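The genes described here are 45 mouse genes of the lysosome: 13 for its proteases and their secreted inhibitor, 12 for glycosidases and sulfatases, 7 for enzymes and carriers of lipids, 11 for its membrane and proton pump, and 2 regulators. They were chosen by function, with earlier results of these data known. Of these, 44 had at least 1 probe paired with no other gene and all 44 were tested, against 10511 genes tested in all, so no member was lost to the filter on low signals. Cd63, a tetraspanin of the lysosomal membrane, had no such probe and was not analysed here. Galns, Naglu, Cln3, Atp6v0d2 and Tfeb had means under 50 in both intact groups and passed the filter only through their injured groups. Their tests of injured against intact cord are thus not independent of the filter. Each gene was read from its probe of highest mean signal.

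Signals came from spinal cord segments at the Th9 level of female C57BL/6 mice (C57BL/6J in the study's methods) without a transplant, in 4 groups of 3 mice with 1 array each. Young mice were 2 to 3 months old and aged mice 15 to 18 months old. At each age, 1 group was intact (labelled normal) and the other was taken 9 days after a contusion spinal cord injury (SCI) at Th9, and every mouse was perfused before its segment was frozen. The paper's question for these arrays was how age changes the response of the cord to SCI. Neurons, glia, vessels and, after SCI, blood cells all contribute RNA to a segment, and fewer or more cells of a type cannot be told apart from less or more RNA per cell. The p-values rest on 1 estimate per gene of the spread between mice of the same group, shared by all 4 groups. The median signal of an array was 20.4 to 23.9 and 35.05% to 36.73% of probes lay above 50. The aged injured arrays stood further from each other (mean Euclidean distance over log2 signals of the genes tested, 47.5 to 72.5) than the arrays of the other groups (26.2 to 33.8). The shared spread draws on those tighter groups too, so it does not measure the spread of the aged injured mice alone.

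Lysosomes are acidic organelles in which proteases, glycosidases, sulfatases and lipases break down material taken up by the cell or delivered by autophagy. Cathepsins cut proteins, glycosidases and sulfatases remove sugars and sulfates from glycans in sequence, and saposins and cholesterol carriers hand lipids to their enzymes. A proton pump, the V-ATPase, keeps the lumen acidic, and the transcription factor TFEB binds a short palindrome, the CLEAR element, whose core is the E-box CACGTG. In nervous tissue, microglia and macrophages are rich in lysosomes and digest myelin and cell debris after injury.

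Promoters are shown for 6 members because the E-box lies before some genes that rose after SCI and some that did not, and is not found before some that rose most. RefSeq (GRCm38.p6) gave windows from 250 bases before to 50 bases after an annotated start for 38 of the 45 genes, and not for Asah1, Atp6v0d2, Atp6v1h, Ctsb, Ctsh, Galns and Npc1. The 250 bases before the start are printed 5′ to 3′ on the strand of the gene, and capitals mark CACGTG, or TCACGTGA where the longer form was found. Both are their own reverse complement, so a match holds on both strands, and every TCACGTGA contains a CACGTG. Gla, which encodes alpha-galactosidase A, lies at chrX:134601006-134601255 on the minus strand. Ctsd, which encodes the aspartic protease cathepsin D, lies at chr7:142387828-142388077 on the minus strand. Lamp1, a main glycoprotein of the lysosomal membrane, lies at chr8:13158911-13159160 on the plus strand, and Mcoln1, a lysosomal calcium channel, at chr8:3500269-3500518 on the plus strand. Gusb, which encodes beta-glucuronidase, lies at chr5:130003050-130003299 on the minus strand, and Ctss, which encodes cathepsin S, at chr3:95526536-95526785 on the plus strand.
Gla: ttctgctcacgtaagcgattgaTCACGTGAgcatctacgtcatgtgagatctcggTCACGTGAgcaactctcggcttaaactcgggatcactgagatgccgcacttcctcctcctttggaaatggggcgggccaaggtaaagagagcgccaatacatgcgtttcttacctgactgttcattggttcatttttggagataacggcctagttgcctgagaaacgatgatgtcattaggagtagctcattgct
Ctsd: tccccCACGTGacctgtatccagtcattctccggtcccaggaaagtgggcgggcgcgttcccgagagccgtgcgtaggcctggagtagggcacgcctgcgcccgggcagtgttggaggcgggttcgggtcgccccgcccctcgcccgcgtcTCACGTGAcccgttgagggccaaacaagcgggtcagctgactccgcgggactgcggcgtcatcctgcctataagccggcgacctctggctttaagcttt
Lamp1: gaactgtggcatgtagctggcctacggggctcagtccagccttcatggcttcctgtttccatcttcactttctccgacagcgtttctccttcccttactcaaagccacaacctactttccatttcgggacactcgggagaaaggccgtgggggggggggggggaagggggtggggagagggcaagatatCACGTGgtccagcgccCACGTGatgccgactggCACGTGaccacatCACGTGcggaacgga
Mcoln1: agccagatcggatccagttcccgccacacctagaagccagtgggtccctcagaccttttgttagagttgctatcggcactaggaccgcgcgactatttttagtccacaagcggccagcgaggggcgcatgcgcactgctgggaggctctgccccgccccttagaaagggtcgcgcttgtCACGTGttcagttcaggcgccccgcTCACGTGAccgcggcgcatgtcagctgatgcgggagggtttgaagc
Gusb: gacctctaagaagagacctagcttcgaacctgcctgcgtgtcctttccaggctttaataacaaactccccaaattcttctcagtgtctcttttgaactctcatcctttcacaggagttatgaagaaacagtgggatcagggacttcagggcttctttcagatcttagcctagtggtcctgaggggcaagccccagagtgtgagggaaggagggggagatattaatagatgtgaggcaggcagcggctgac
Ctss: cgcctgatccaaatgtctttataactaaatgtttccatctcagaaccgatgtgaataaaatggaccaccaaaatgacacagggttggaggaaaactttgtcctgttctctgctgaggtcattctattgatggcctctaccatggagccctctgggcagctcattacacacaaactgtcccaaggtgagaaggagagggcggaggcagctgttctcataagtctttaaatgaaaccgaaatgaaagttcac

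The CACGTG core was found in the windows of 14 of the 38 genes (36.8%), against 8.09% of 27025 genes with a window, and TCACGTGA in 7 of 38 (18.4%) against 1.12%. By class, the core was found for 5 of 11 proteases, 4 of 11 glycosidases and sulfatases, 0 of 5 lipid genes, 5 of 9 membrane and pump genes and 0 of 2 regulators. Gla held 2 copies of TCACGTGA, at -228 and -195 from the start, and Lamp1 held 4 copies of the core between -61 and -15. Gusb and Ctss held none in this window. A match is a description of these letters and does not show binding.

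SCI raised most of the lysosomal genes at both ages. In young mice, 35 of 44 members rose (79.5%), against 33.9% of all genes tested, and 3 fell (6.82%), against 34.1%. In aged mice, 35 rose (79.5%), against 35.6% of all genes, and 4 fell (9.09%), against 39.9%. The rises include Galns, Naglu, Cln3 and Atp6v0d2 at both ages and Tfeb in aged mice. These genes passed the filter on low signals only through the injured groups. A member is called when its Benjamini-Hochberg adjusted p from limma, taken over all 10511 genes, lies under 0.05, and log2 differences here are differences of group means of log2 signal. The median change of the members was 1.42 in young and 1.58 in aged mice on the log2 scale, against -0.00 and -0.04 for all genes tested. The same 34 members rose at both ages, and Ids and Atp6v1h fell at both. Summed over the 44 genes, the signal was 32508 to 33652 in young intact and 33759 to 34873 in aged intact cord, and 71744 to 90862 in young injured and 87218 to 99972 in aged injured cord.

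Markers of macrophages and microglia moved with these genes. All 12 markers tested rose after SCI at both ages (median 3.74 in young and 3.43 in aged mice, log2). Their summed signal was 2179 to 2398 in young intact, 3836 to 4007 in aged intact, 22408 to 28824 in young injured and 26902 to 32077 in aged injured cord, and the defining markers Itgam and Spi1 had mean signals under 50 in both intact groups and Trem2 in young intact cord. The 6 markers of blood monocytes and macrophages with a probe also rose at both ages, and 5 of them, all but Lyz2, had means under 50 in intact cord. The 7 T and B cell markers with a probe were under 50 in every group. Of 9 neuron markers tested, 5 fell after SCI in young and 9 in aged mice, and the 10 with a probe had summed signals of 21378 to 22545 over all intact arrays, 7333 to 11460 in young injured and 1477 to 10576 in aged injured cord. Of 6 markers of homeostatic microglia, 3 (Cx3cr1, Tmem119 and Gpr34) rose at both ages and 2 (Sall1 and Siglech) fell in aged mice. All 6 fibroblast and meningeal markers rose at both ages (median 2.04 and 2.62), and of 6 oligodendrocyte markers 1 rose in young and 3 fell in aged mice. The part of these cells in the lysosomal signals was not tested.

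**Figure D1:**
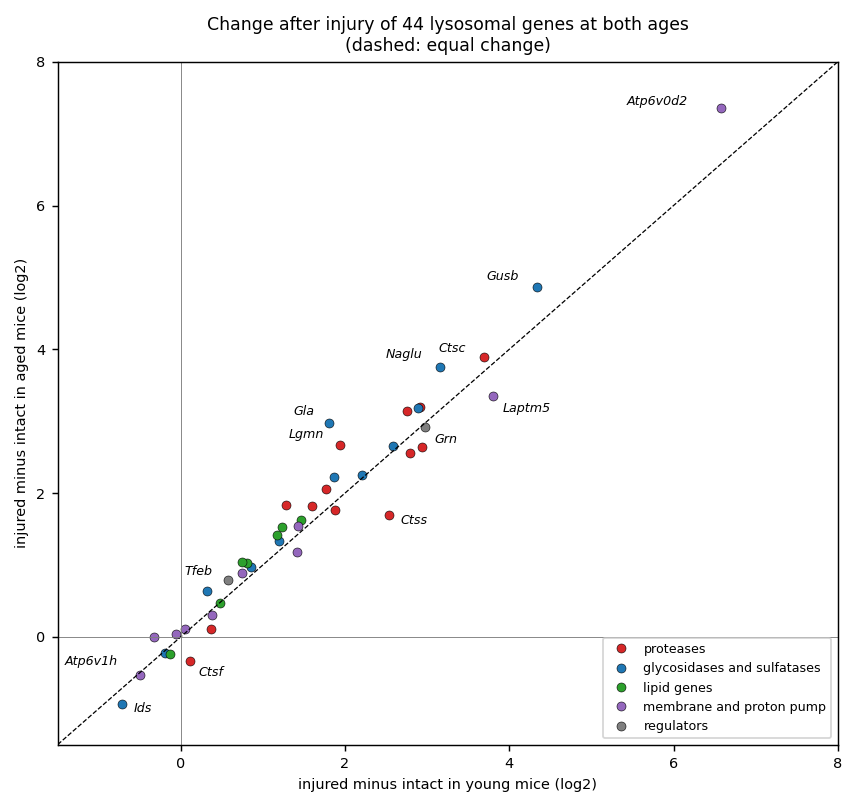
Change after SCI (injured minus intact, log2) of the 44 lysosomal genes in young mice on the x axis and aged mice on the y axis, with a point per gene coloured by class and a dashed line where both changes are equal. Points lie close to the line over their whole range, from Ids below 0 at both ages to Atp6v0d2 at 6.58 and 7.35 (fitted from intact signals under 50, so no measure of its fold), with Gla above it and Ctss below it.

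The sizes of the change at the 2 ages ran in parallel. Where an intact mean lies under a signal of 50, the cutoff of the study, a fold is given as at least the injured mean over 50, and this applies to Galns, Naglu, Cln3, Atp6v0d2 and Tfeb. Over the other 39 genes the sign was the same at both ages for 37, and the change was larger in aged mice for 25 and in young mice for 14. Across these 39 genes, which are not independent replicates, Pearson's r and Spearman's rho were both 0.97 between comparisons that share no arrays. With the 5 genes at their bound, 4 of the 44 had a change above 3 on the log2 scale in young mice and 7 in aged mice, and the median change was 1.35 in young and 1.58 in aged mice.

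Proteases rose almost throughout, with a median log2 change of 1.93 at the younger age and 2.06 at the older. Of 13 genes, 12 rose in young mice and none fell, and in aged mice 11 rose and 1 fell. Ctsc, the dipeptidyl peptidase that activates the serine proteases of immune granules, had signals of 131.0, 138.3 and 119.2 in young intact and 164.8, 168.0 and 162.3 in aged intact cord. After SCI they were 1780, 1344 and 1945 in young and 3195, 2113 and 2149 in aged mice. Every injured array thus lay far above every intact array, and Ctsc had the largest change of the class, 3.69 (SE 0.16, adjusted p = 2.75e-08 from limma) in young and 3.89 (SE 0.16, adjusted p = 1.90e-08) in aged mice.

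Ctsh, an aminopeptidase of the cathepsin family, had 333.2, 374.3 and 285.5 in young intact, 358.7, 346.3 and 283.3 in aged intact, 2653, 2106 and 2739 in young injured and 3392, 2675 and 3031 in aged injured cord. Its log2 change was 2.92 (SE 0.14) in young and 3.20 (SE 0.14) in aged mice, 7.55-fold and 9.21-fold between group means. Ctsa, a carboxypeptidase that also protects beta-galactosidase and the sialidase Neu1, had 257.9 to 286.3 over the intact young and 267.1 to 273.5 over the intact aged arrays. It reached 1802, 1509 and 2178 in young injured and 2786, 1977 and 2436 in aged injured cord, 6.83-fold and 8.90-fold above intact. For both genes the intact and injured arrays did not overlap.

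In aged mice the other proteases had smaller changes. In young mice Ctsz lay above Ctsh and Ctsa, and Ctsd above Ctsa. Ctsd had a log2 change of 2.78 in young and 2.56 in aged mice, Ctsz 2.94 and 2.64, Lgmn, the asparaginyl endopeptidase, 1.93 and 2.66, Ctsb 1.87 and 1.77, Ctsl 1.77 and 2.06, Tpp1, a tripeptidyl peptidase, 1.60 and 1.82, and Ctsk 1.28 and 1.83. Ctss, which trims the invariant chain of MHC class II, rose from 980 ± 52.1 to 5729 ± 745 in young and from 1839 ± 19.8 to 5944 ± 352 in aged mice (SD, n = 3 each). Its injured signals, 4878 to 6262, stood near the highest signal of any probe on an array, which ranged from 6414 to 8891 over the 12 arrays. The part of the upper end of the scale in this change was not tested.

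Cst3, which encodes cystatin C, a secreted inhibitor of the cysteine cathepsins, changed little. It had 4539, 4265 and 4121 in young intact, 5557, 5031 and 6192 in young injured, 4315, 4545 and 4042 in aged intact and 4243, 4792 and 4915 in aged injured cord. The young arrays did not overlap and the gene rose by 0.37 (SE 0.08, adjusted p = 0.00245 from limma), while the aged arrays overlapped and the difference was 0.11 (SE 0.08, adjusted p = 0.244). Ctsf, a cysteine cathepsin, was the only protease that fell in any comparison of injured with intact cord. It had 113.1, 119.3 and 125.6 in aged intact and 83.0, 99.9 and 101.1 in aged injured cord, a change of -0.34 (SE 0.09, adjusted p = 0.00546), and 131.9 to 141.6 in young intact against 141.8 to 153.8 in young injured cord, with a difference of 0.11 (adjusted p = 0.315).

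Glycosidases and sulfatases also rose, with a median of 1.84 in young mice and 2.24 in aged ones and with 10 of 12 higher and 1 lower at each age. With Naglu and Galns at their bound, the young median was 1.765 and the aged one was unchanged. Gusb had the largest change of the class. It had 64.4, 76.0 and 61.7 in young intact and 83.7, 78.7 and 77.8 in aged intact cord, and 1403, 1087 and 1650 in young injured and 2922, 1954 and 2243 in aged injured cord. That is 20.5-fold higher after SCI in young and 29.6-fold in aged mice, with log2 changes of 4.34 (SE 0.17, adjusted p = 8.77e-09 from limma) and 4.87 (SE 0.17, adjusted p = 5.01e-09). A second Gusb probe was at least 4.85-fold higher in young and 8.18-fold higher in aged mice.

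Naglu, which removes glucosamine residues from heparan sulfate, had 28.5, 32.0 and 19.9 in young intact and 29.2, 37.8 and 26.5 in aged intact cord, all under 50. It had 226.2, 201.5 and 278.8 in young injured and 523.7, 310.4 and 439.2 in aged injured cord, at least 4.71-fold and at least 8.49-fold higher. Galns, a sulfatase of keratan sulfate and chondroitin sulfate, was likewise under 50 on every intact array, at 17.4 to 26.0 in young and 28.4 to 32.3 in aged mice. After SCI it had 172.1, 132.1 and 191.0 in young and 349.7, 222.8 and 285.1 in aged mice, at least 3.30-fold and at least 5.72-fold higher. Both thus passed from below the cutoff to well above it.

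Of the rest of the class, Hexa, the alpha subunit of beta-hexosaminidase A, rose by 2.59 in young and 2.66 in aged mice, Man2b1, an alpha-mannosidase, by 2.20 and 2.25, Gla by 1.81 and 2.98, Glb1, a beta-galactosidase, by 1.87 and 2.23, and Fuca1, a fucosidase, by 1.20 and 1.34. Arsb, which removes sulfate from chondroitin and dermatan sulfate, rose by 0.85 and 0.97, and Neu1 by 0.32 and 0.64. Gaa, the acid glucosidase that degrades glycogen, passed the test at neither age (-0.20, adjusted p = 0.0956, and -0.23, adjusted p = 0.0533). The rise of Neu1 in young mice was no longer called without young intact replicate 2 or young injured replicate 3.

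Ids, which removes a sulfate from iduronic acid in heparan and dermatan sulfate, went against its class. It had 2396, 2490 and 2503 in young intact and 1482, 1563 and 1466 in young injured cord, and 2217, 2383 and 2297 in aged intact and 947, 1493 and 1210 in aged injured cord. Injured arrays lay below all intact arrays at both ages, with changes of -0.71 (SE 0.12, adjusted p = 5.10e-04 from limma) and -0.94 (SE 0.12, adjusted p = 5.27e-05). A dimmer Ids probe above the cutoff showed -0.49 in young and -0.01 in aged mice. With all 6 Ids probes averaged, 4 of them under the cutoff in every group, the young difference was 0.17 and the aged call was lost.

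Lipid genes rose with a median of 0.80 in young and 1.04 in aged mice, 6 of 7 higher at both ages. Asah1, acid ceramidase, had 736.2, 718.1 and 703.6 in young intact, 2101, 1718 and 2145 in young injured, 721.8, 746.9 and 754.2 in aged intact and 2579, 2122 and 2148 in aged injured cord. Its changes were 1.46 and 1.62 (SE 0.09 each), with no overlap of arrays. Npc2, a soluble carrier that takes cholesterol to the membrane protein Npc1, had 1369, 1373 and 1262 in young intact and 3208, 2795 and 3425 in young injured cord, and 1166, 1157 and 1247 in aged intact and 3726, 3136 and 3429 in aged injured cord.

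The change of Npc2 was 1.23 in young and 1.52 in aged mice, and Npc1 rose by 0.80 and 1.02. Psap, the precursor of the saposins, had 2239, 2242 and 2227 in young intact, 5307, 4067 and 5840 in young injured, 2094, 2208 and 2222 in aged intact and 5970, 5495 and 5903 in aged injured cord, with changes of 1.17 and 1.41. Gm2a, an activator protein of ganglioside breakdown, rose by 0.75 and 1.04, and Ppt1, a thioesterase that removes palmitate from proteins, by 0.48 and 0.47. Smpd1, acid sphingomyelinase, was lower. It had 433.9, 488.0 and 457.2 in aged intact and 382.8, 401.1 and 383.2 in aged injured cord, a change of -0.24 (SE 0.06, adjusted p = 0.00591 from limma), and a difference of -0.13 (95% interval -0.27 to 0.01), which was not called, in young mice.

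Membrane and pump genes were split. Their median was 0.56 in young and 0.60 in aged mice, with 6 of 10 higher and 2 lower in young and 6 higher and 1 lower in aged mice. Atp6v0d2, a subunit of the membrane sector of the V-ATPase known from macrophages and osteoclasts, had 7.1, 6.5 and 5.5 in young intact and 7.2, 8.1 and 5.5 in aged intact cord, far under 50. After SCI it had 759.9, 476.5 and 610.0 in young and 1466, 931 and 1023 in aged mice, at least 12.3-fold and at least 22.8-fold higher (adjusted p = 3.33e-09 and 2.23e-09 from limma).

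Its paralog Atp6v0d1, which most cells use in the same place, had means of 1131 and 1174 in young intact and injured cord and 1171 and 1266 in aged intact and injured cord. The differences were 0.05 (95% interval -0.10 to 0.20) and 0.11 (-0.04 to 0.26), and neither passed the test. Atp6v1a, the catalytic subunit of the cytosolic sector, had 1768, 1749 and 1872 in young intact and 1533, 1348 and 1402 in young injured cord, a fall of -0.33 (SE 0.07, adjusted p = 0.00200), against -0.01 (adjusted p = 0.931) in aged mice. Atp6v1h, a regulatory subunit of that sector, had 1258, 1301 and 1334 in young intact, 847, 1043 and 884 in young injured, 1414, 1312 and 1434 in aged intact and 888, 1159 and 844 in aged injured cord. It fell by 0.49 and 0.54 on the log2 scale, while a dimmer Atp6v1h probe, under 50 in intact cord, was at least 1.36-fold and at least 1.32-fold higher after SCI, so its probes disagreed in direction.

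Laptm5, a lysosomal membrane protein of blood-derived cells, had 137.6, 132.5 and 134.9 in young intact and 233.0, 250.1 and 244.7 in aged intact cord. It had 2001, 1716 and 1955 in young injured and 2625, 2466 and 2319 in aged injured cord, with changes of 3.80 (SE 0.07, adjusted p = 7.24e-11 from limma) and 3.35 (SE 0.07, adjusted p = 2.90e-10). Lamp2, a main glycoprotein of the membrane, had 919.7 to 974.4 in young intact, 2336 to 2701 in young injured, 961.8 to 1029 in aged intact and 2647 to 3323 in aged injured cord. It rose by 1.43 and 1.54, Lamp1 by 0.74 and 0.89, Laptm4a, a relative of Laptm5, by 0.38 and 0.30, and Cln3, a membrane protein mutated in Batten disease, by at least 1.81-fold and 1.90-fold. Mcoln1 passed the test at neither age, with differences of -0.06 (95% interval -0.28 to 0.16) and 0.04 (-0.18 to 0.25).

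Both regulators had a higher mean signal after SCI. Grn, which encodes progranulin, a secreted protein that reaches lysosomes, had 460.3, 463.8 and 463.0 in young intact, 3534, 3260 and 4199 in young injured, 558.7, 603.7 and 597.4 in aged intact and 4738, 4223 and 4404 in aged injured cord. It rose by 2.98 and 2.92 (SE 0.09 each), 7.93-fold and 7.59-fold. Tfeb, near the cutoff on every array, had 45.9, 33.9 and 51.3 in young intact, 72.7, 51.1 and 70.5 in young injured, 33.7, 47.3 and 26.2 in aged intact and 67.9, 49.0 and 64.2 in aged injured cord. It passed the test in aged mice, at least 1.21-fold higher (adjusted p = 0.0128 from limma), and not in young mice (0.57, adjusted p = 0.0579), where the arrays overlapped. The aged call was lost without aged intact replicate 3.

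**Figure D2:**
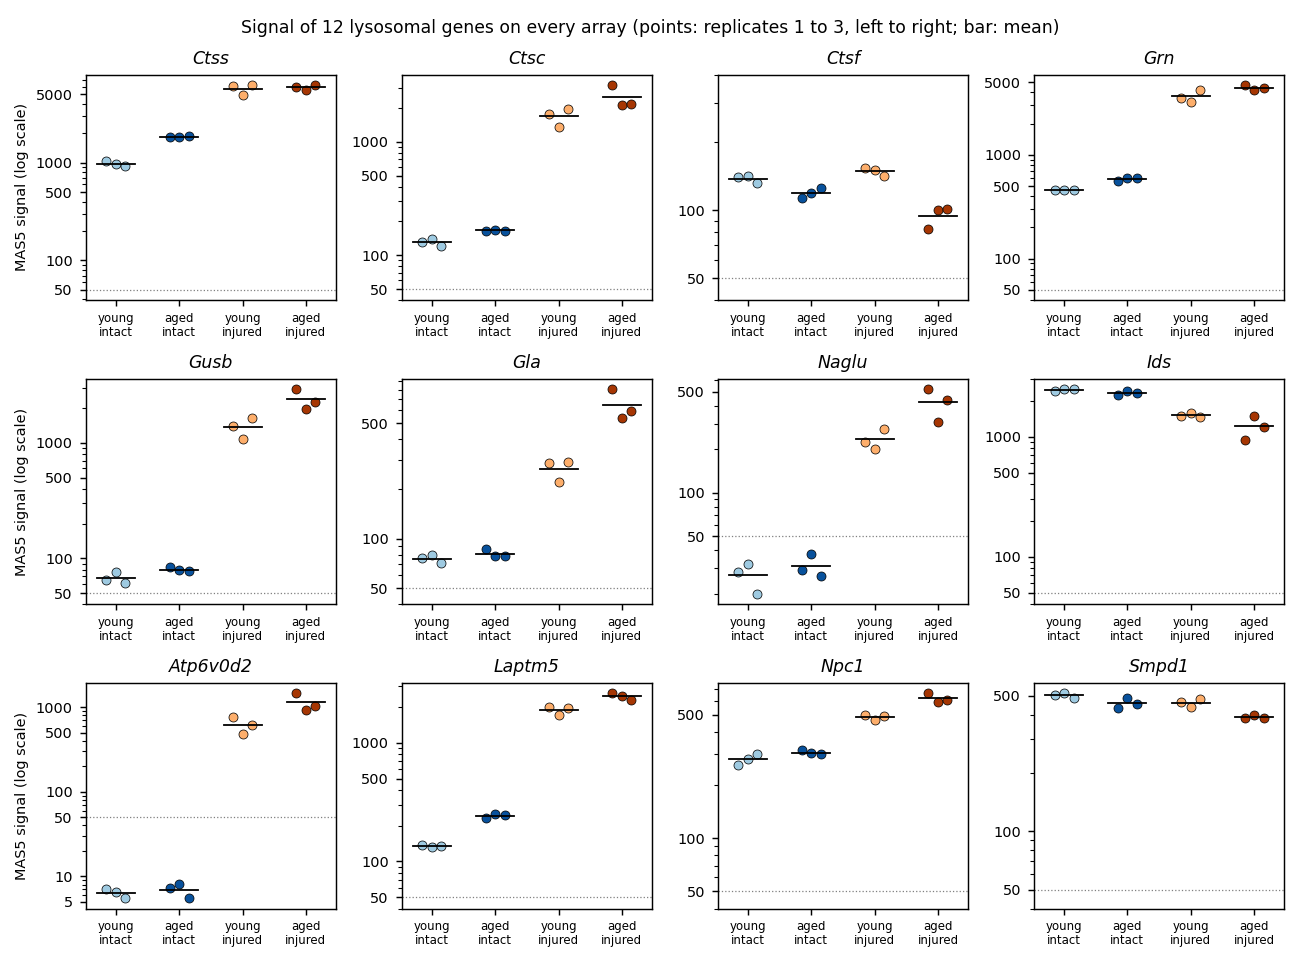
Signal of 12 lysosomal genes (y axis, log scale) on every array, by group on the x axis, with points for replicates 1 to 3 from left to right, a bar at the group mean and a dotted line at the cutoff of 50. Within each age, injured arrays lie above intact ones in 9 of the 12 panels and below them for Ids and Smpd1. Aged injured arrays lie above young injured ones for Gla, Gusb, Naglu, Atp6v0d2, Laptm5, Npc1, Ctsc and Grn and below them for Ctsf and Smpd1.

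The change after SCI overlapped between genes with and without the E-box. Of the 37 members with a window and a probe, the 14 with the core had a median change of 1.59 in young mice and 1.62 in aged ones, and the 23 without it 1.23 and 1.52. The medians with the core rest in part on Cln3, fitted from intact signals under 50, so their order against the others is not read. The range was -0.33 to 3.15 in young mice with the core and -0.71 to 4.34 without it. The 3.15 is that of Naglu, also fitted from intact signals under 50. At each age 9 of the 14 with the core and 20 of the 23 without it were called higher, against 33.9% of all genes tested in young and 35.6% in aged mice. Genes with the core include Ctsa (2.76 and 3.14), Ctsd (2.78 and 2.56) and Gla (1.81 and 2.98), and also Mcoln1, Atp6v0d1, Atp6v1a, Gaa and Ctsf, called higher at neither age. Genes without it in this window include Gusb, Ctsc, Laptm5 and Grn, which rose by about 3 or more, and Ids and Smpd1, called higher at neither age. No test of this comparison was made.

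**Figure D3:**
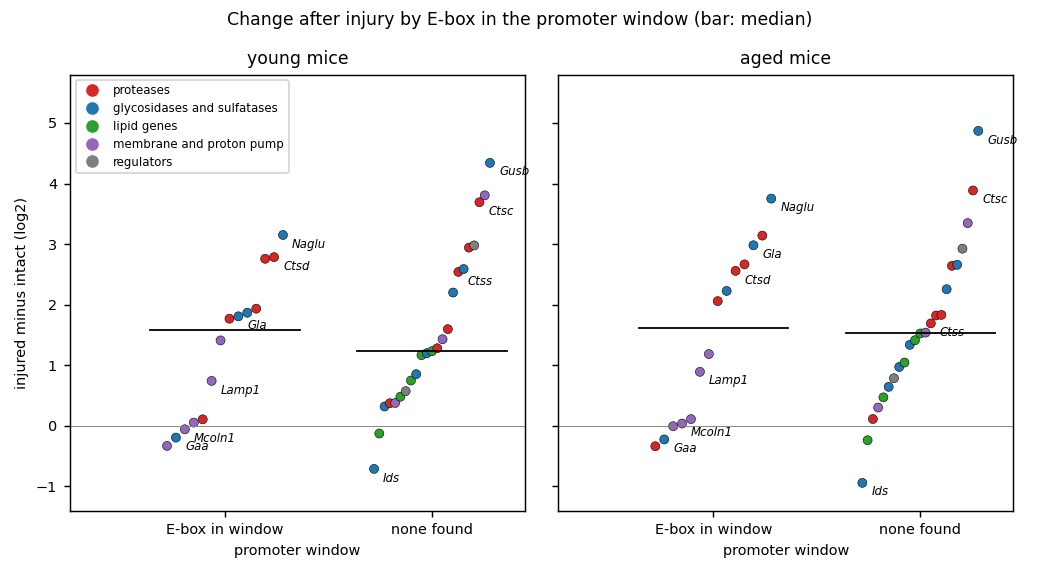
Change after SCI (log2, y axis) of the 37 members with a promoter window, split by whether CACGTG was found in it, in young (left) and aged mice (right), with a point per gene coloured by class and a bar at the median. The medians are 1.59 and 1.23 in young and 1.62 and 1.52 in aged mice, and the ranges overlap over most of their length. Cln3, which enters the medians with CACGTG, Naglu and Tfeb are fitted from intact signals under 50, so their points are no measure of their fold.

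In intact cord, few of these genes passed the test for age. Higher in aged mice were 2 of 44 members (4.55%), against 0.542% of all genes tested, and 0 were lower, against 0.266%, from limma, while 9 members (20.5%) had an unadjusted p under 0.05, against 10.2% of all genes. The aged arrays all lay above the young ones for 13 members (29.5%), against 14.3% of all genes, and all below for 6 (13.6%), against 11.2%. Galns is among the 13, but its intact signals all lay under 50, so no age difference is read from it. The median difference of the members was 0.08, and 0.00 for all genes. Ctss had 1832, 1824 and 1862 in aged and 1032, 980 and 928 in young mice, a difference of 0.91 (SE 0.09, adjusted p = 6.27e-04). Laptm5 was 1.80-fold higher in aged mice, with a difference of 0.85 (SE 0.07, adjusted p = 3.80e-04) for the signals given above.

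Both genes are known from microglia and macrophages, and 9 of the 12 markers of these cells were also higher in aged intact cord, with a median difference of 0.85 and summed signals of 3836 to 4007 against 2179 to 2398. Of the 6 homeostatic microglia markers 1 (Gpr34) was higher, and of the 6 fibroblast and meningeal markers 3 were lower. No other member was called, although several showed separate groups. Ctsz had a difference of 0.47 (adjusted p = 0.176), Grn 0.34 (adjusted p = 0.135) and Ctsd 0.25 (adjusted p = 0.294), in each case with all aged above all young arrays. When the 6 intact arrays were fitted alone, 7 members were called higher (15.9%), against 2.63% of all genes. The Laptm5 call rests on a probe of a type that can share sequence with other genes. Its 1 other probe with both intact means above 50 showed 0.35.

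After SCI, a further set was higher in aged mice. Of 44 members, 10 had a higher signal in the aged injured group (22.7%), against 4.41% of all genes tested, and 2 were lower (4.55%), against 4.58%. All aged arrays lay above all young ones for 14 members (31.8%), against 14.0% of all genes, and below for 3 (6.82%), against 14.1%. The difference was positive for 38 of 44 members (86.4%) and for 43.9% of all genes, and its median was 0.20 for the members and -0.04 for all genes. By class, the median was 0.36 for glycosidases and sulfatases, with 5 of 12 higher, 0.28 for proteases, with 2 of 13 higher and 1 lower, 0.20 for lipid genes, with 1 of 7 higher and 1 lower, and 0.09 for membrane and pump genes, with 2 of 10 higher.

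These values depend on single arrays, and the calls over all genes moved with those of the members. The median of 0.20 fell to 0.11 with aged injured replicate 1 left out, and to 0.12 with young injured replicate 2 left out. Aged injured replicate 1 was the highest of its group for 33 of 44 members and 10 of 12 macrophage and microglia markers. It was the lowest for 10 of 10 neuron markers, and its mean distance from its group, 72.5, was the largest of all arrays. Without young injured replicate 2, which had the lowest young injured signal for 40 of 44 members, 2 members were higher (4.55%, against 1.1% of all genes), and without aged injured replicate 2, lowest in its group for 34 members, 17 were higher and 4 lower (38.6% and 9.09%, against 11.6% and 17.5%). Without young injured replicate 1, 4 were higher (9.09%, against 1.44% of all genes). Without aged injured replicate 1, 5 were (11.4%, against 2.24%), and without aged injured replicate 3, 4 were (9.09%, against 1.88%). Without aged intact replicates 1 and 3, 6 each were higher (13.6%, against 3.12% and 3.01% of all genes). With both arrays numbered 2 of the injured groups left out, 11 were higher and 5 lower (25% and 11.4%, against 6.45% and 7.83% of all genes). The calls of Gla, Ctsf and Laptm5 held with each of the 12 arrays left out in turn, and Npc1, Gusb and Lgmn were lost without young injured replicate 2, as were Gusb and Lgmn without young injured replicate 1 and Lgmn without aged injured replicate 3. Those of Naglu, Galns, Neu1, Ctsl, Atp6v0d2 and Smpd1 were lost with 6 or more of the 12. The calls between the injured groups thus also rest on the spread shared with the intact groups. Fitted over the 6 injured arrays alone, with their own spread and fewer arrays, limma called 0 of 10511 genes. In that fit 17 of the 44 members (38.6%) had an unadjusted p under 0.05, against 18.8% of all genes.

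Gla had the largest of these differences. It had 286.8, 221.3 and 289.9 in young injured and 810.8, 536.9 and 596.8 in aged injured cord, 2.44-fold higher in aged mice, a difference of 1.27 (SE 0.15, adjusted p = 0.00280 from limma). Intact signals were 71.0 to 86.8 at both ages. A second Gla probe, with group means of 76.3 and 114, showed 0.58 in the same direction, and the call was lost when all 3 probes were averaged.

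Of the other glycosidases, Naglu differed by 0.83 (SE 0.23, adjusted p = 0.0488), Galns by 0.78 (SE 0.20, adjusted p = 0.0370) and Gusb by 0.78 (SE 0.17, adjusted p = 0.0212), all from limma and from the signals given above. For each the lowest aged injured array lay above the highest young injured array. Neu1 had 103.0, 98.2 and 111.3 in young injured and 159.6, 126.9 and 134.6 in aged injured cord, a difference of 0.43 (SE 0.10, adjusted p = 0.0340). Neu1 was read from a probe at 76.4 to 92.9 in intact cord, and with its 3 probes averaged the difference was -0.03.

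Atp6v0d2 was 1.85-fold higher in aged injured cord (0.89, SE 0.22, adjusted p = 0.0343), and a second probe of the gene showed 1.20. Lgmn had 2194, 1657 and 2484 in young injured and 4269, 2825 and 3292 in aged injured cord, a difference of 0.71 (SE 0.16, adjusted p = 0.0272), from intact signals of 502.0 to 604.1 in young and 506.2 to 554.9 in aged mice. Ctsl had 4114, 3654 and 4521 in young injured and 5035, 4880 and 5133 in aged injured cord, a difference of 0.30 (SE 0.07, adjusted p = 0.0349). All 3 genes showed no overlap between the ages.

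Npc1 had 500.3, 470.6 and 495.0 in young injured and 667.4, 594.0 and 609.9 in aged injured cord, against 259.1 to 299.4 in young intact and 299.4 to 315.3 in aged intact cord. Its difference after SCI was 0.35 (SE 0.07, adjusted p = 0.0192 from limma). Laptm5 differed by 0.39 (SE 0.07, adjusted p = 0.0153), less than the 0.85 in intact cord. Lower in aged injured cord were Ctsf, at -0.66 (SE 0.09, adjusted p = 0.00572), with 83.0 to 101.1 against 141.8 to 153.8, and Smpd1, at -0.25 (SE 0.06, adjusted p = 0.0402), with 382.8 to 401.1 against 439.2 to 480.8.

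Other members, among them strong responders to SCI, were not called. Ctsd differed by 0.03 (95% interval -0.16 to 0.21), Ctsb by 0.01 (-0.18 to 0.19), Ctss by 0.06 (-0.13 to 0.25) and Lamp1 by 0.06 (-0.11 to 0.24) between the injured groups. For Ctsb this depended on the probe: its 4 other probes above the cutoff showed 0.39 to 0.63, and the 3 of them with intact means above 50 rose by 2.58 to 3.70 in young mice, against 1.87 for the brightest probe, which was used. In young and aged injured cord, means were 4775 and 4835 for Ctsd and 5326 and 5315 for this Ctsb probe. The highest probe signal of an array was 6414 to 8891. The part of the upper end of the scale in the age differences of Ctsd, Ctsb and Ctss was not tested. Ctsc differed by 0.55 (adjusted p = 0.0614) and Grn by 0.29 (adjusted p = 0.0580), with all aged above all young arrays, and Cst3 by -0.26 (adjusted p = 0.0694), with all aged arrays below.

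**Figure D4:**
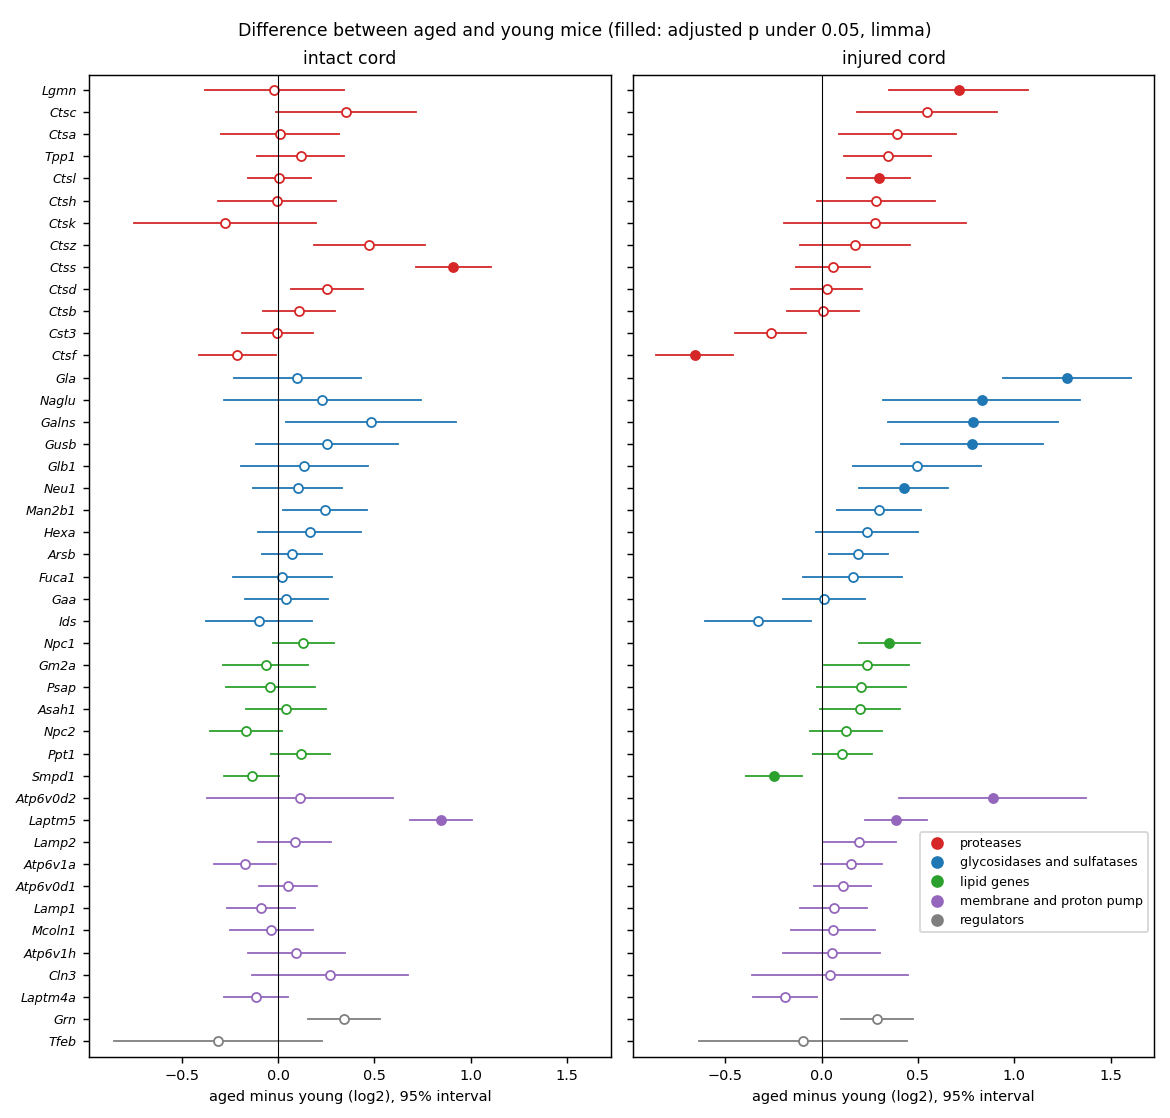
Difference between aged and young mice (log2, x axis, point with 95% interval) in intact (left) and injured cord (right) for the 44 lysosomal genes, ordered by class, with filled points for genes called by limma. In intact cord 2 points are filled, Ctss and Laptm5, and in injured cord 12 are, led by Gla at 1.27.

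Cell markers also differed between the injured groups. Of the 12 macrophage and microglia markers, 3 (Itgam, Adgre1 and Trem2) were higher in aged mice, with a median difference of 0.21, and of 6 blood monocyte and macrophage markers 3 (Arg1, Cd36 and Msr1) were higher, with summed signals of 10692 to 14520 in aged against 6308 to 8736 in young mice. Among the astrocyte markers, 3 of 6 were lower in aged injured cord. All 9 neuron markers tested (median -1.07) and all 6 oligodendrocyte markers (median -0.44) had a negative difference, and none of them was called. The arrays that were lowest for the lysosomal genes were lowest for macrophage markers too: young injured replicate 2 for 12 of 12 and aged injured replicate 2 for 10 of 12, and each had the highest signal of its group for 9 of 10 neuron markers. Of the 34 members that rose at both ages, these arrays were lowest for 33 and 31. The part of cell composition in the age differences was not tested.

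**Figure D5:**
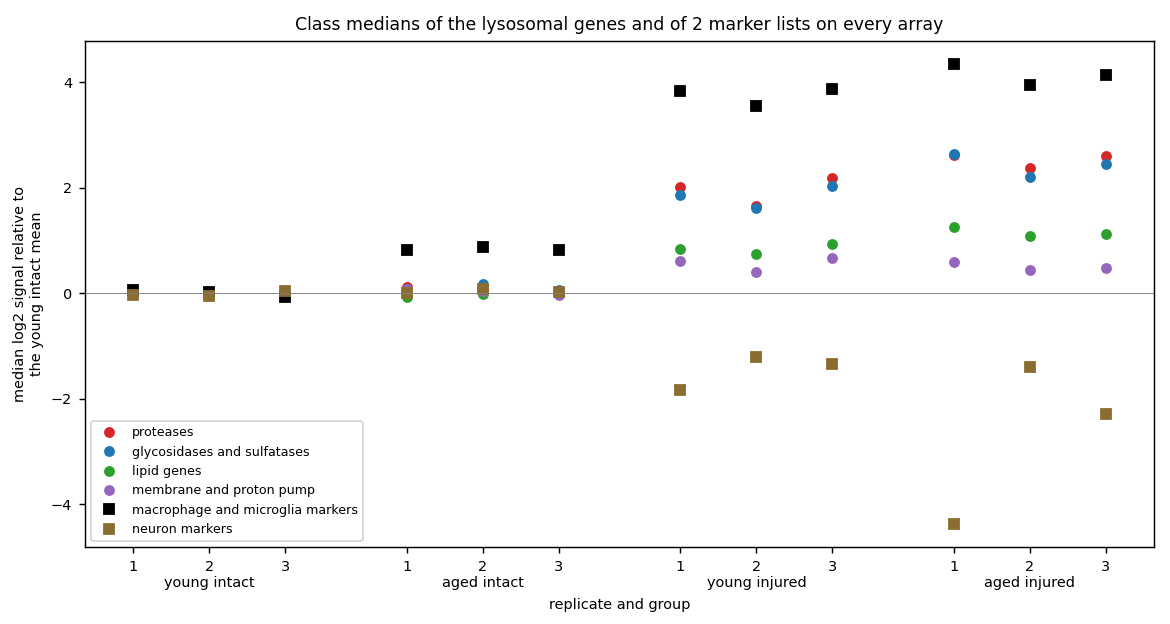
Median log2 signal relative to the young intact mean (y axis) of 4 classes of lysosomal genes (circles) and of macrophage and neuron markers (squares) on each of the 12 arrays, ordered by group and replicate on the x axis. In injured cord, replicate 2 of each age has the lowest macrophage marker median and the highest neuron marker median, and the proteases and the glycosidases are lowest there as well.

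The effect of SCI itself differed with age for few members. An interaction of age and injury, the injury change in aged minus that in young mice, was called positive for 1 of 44 members (2.27%), against 0.133% of all genes, and negative for 1 (2.27%), against 0.304%. Its median was 0.14 for the members and -0.06 for all genes, and for the members it was 0.05 when young injured replicate 2 was left out, or 0.06 when aged injured replicate 1 was. Gla had an interaction of 1.17 (SE 0.21, adjusted p = 0.0488 from limma) and Ctss one of -0.85 (SE 0.12, adjusted p = 0.0176). The Ctss call was lost with young intact replicates 2 or 3, young injured replicates 1 or 3, or any aged intact array left out, and that of Gla held only without aged injured replicate 1 or aged injured replicate 2. For Ctss, aged mice started higher and both ages ended at nearly the same signal, near the highest probe signal on the arrays. The part of the upper end of the scale in this interaction was not tested. For the other members called higher in aged injured cord, such as Lgmn (0.73, adjusted p = 0.172) and Gusb (0.53, adjusted p = 0.302), the interaction did not pass.

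Lysosomal genes outside the list were set beside it. Of 72 genes, chosen for function, 65 had a probe and 64 were tested. In young mice 40 rose and 10 fell after SCI (62.5% and 15.6%, against 33.9% and 34.1% of all genes), with a median of 0.66. In aged mice 46 rose and 11 fell (71.9% and 17.2%, against 35.6% and 39.9% of all genes), with a median of 0.80. Gpnmb, a glycoprotein of phagocytic cells, had 13.3 to 14.7 in young intact and 4026 to 5318 in young injured cord, and 30.3 to 41.1 in aged intact and 5564 to 6215 in aged injured cord, at least 94.4-fold and at least 117-fold higher. Cd68, a macrophage glycoprotein, rose at least 42.4-fold in young and 46.2-fold in aged mice, and Mcoln3, a relative of Mcoln1, at least 3.20-fold and at least 4.76-fold from intact signals of 0.2 to 2.7. Slc11a1, a metal transporter of phagosomes, rose at least 9.94-fold in young mice, and Acp5, an acid phosphatase of osteoclasts and macrophages, at least 7.61-fold in aged mice.

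Between the injured groups, 14 of these 64 genes had higher signals in the aged group (21.9%, against 4.41% of all genes). None had lower ones (0%, against 4.58%), and the median was 0.28. These calls too rest on the spread shared with the intact groups, as the fit over the injured arrays alone called 0 of 10511 genes. Lipa, the acid lipase that frees cholesterol from its esters, had 737.1, 579.7 and 812.8 in young and 1822, 1127 and 1350 in aged injured cord, a difference of 1.00 (adjusted p = 0.0114 from limma). Igf2r, a receptor that carries enzymes to the lysosome, had 392.2, 316.6 and 400.1 in young and 857.7, 551.1 and 676.0 in aged injured cord, a difference of 0.90 (adjusted p = 0.0121). Cd68 differed by 0.76 (adjusted p = 0.0212), and Tpcn2, a lysosomal ion channel, was under 50 in young mice and had 91.9, 55.0 and 64.1 in aged mice (adjusted p = 0.0275). In intact cord Cd68, with a young mean under 50, was at least 1.55-fold higher in aged mice (adjusted p = 0.0160). Gpnmb passed the test in intact cord (adjusted p = 5.24e-04) and for the interaction (adjusted p = 0.0376), but all its intact signals lay under 50, so no size or direction of either is given.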

How the data were processed

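RNA from 12 mouse spinal cord segments was hybridised to Affymetrix arrays, 1 array a mouse and 3 mice in each of 4 groups. Per the labels, the authors computed intensities with MAS5 and scaled each array to a trimmed mean of 100 before the values were deposited. No 2 arrays were identical. Of 45101 probes, 34958 named 1 gene in the platform annotation, 932 named several and 9211 none, and only the first were used. Each gene was read from its probe of highest mean signal, and 10511 of 18194 genes had a mean above the study's cutoff of 50 in at least 1 group.

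Log2 signals were fitted with limma 3.58.1 in R 4.3.3, with 1 mean per group over all 12 arrays and a trend in the spread, and p-values were adjusted by Benjamini-Hochberg over all genes tested, with a call at 0.05. The fit was also run on simulated data with independent genes and the same spread of a gene in every group. That run does not cover the wider spread of the aged injured arrays. Intervals are at 95%. The members, lists and tests were chosen with earlier results of these data known. Values on every array are given for the 3 called members of largest change in each class, for members called between ages, for the interaction or against their class, and for Cst3, Grn and Tfeb, and 4 genes per comparison are named from the other lysosomal genes. Alternatives changed the cutoff, scaling, offset, probe, arrays, weights, trend and replicate block. The number of arrays limits the precision.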

Additional observations from a re-analysis of the deposited data

Results flagged for a closer look

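The effect of SCI differed between ages, by the interaction of age and injury in limma, for 2 of the 44 lysosomal genes. Of these, 1 was positive (2.27%, against 0.133% of all genes) and 1 negative (2.27%, against 0.304%). Ctss rose less in aged than in young mice, with an interaction of -0.85 on the log2 scale (95% interval -1.12 to -0.58, adjusted p = 0.0176). Its injured signals stood near the highest probe signal on the arrays, and the part of this upper end in the interaction was not tested. Gla rose more in aged mice, with an interaction of 1.17 (95% interval 0.71 to 1.64, adjusted p = 0.0488). Aged intact arrays were all above young intact arrays for Ctss, and aged injured arrays were all above young injured arrays for Gla. The call was lost in 7 of 23 alternatives for Ctss and in 16 of 23 for Gla, and neither changed direction in any of them.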

How the results depend on the processing

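After SCI, the count of members higher stayed within 1.5 times of 35 at both ages in all alternatives. The count lower in young mice was 5 with arrays centred on the median (11.4%, against 37.7% of all genes). It was 1 with all probes of a gene averaged (2.27%, against 27.2%), which also gave 0 lower in aged mice, against 33.6%. The median change in young mice was 1.32 with 16 added to each signal. In intact cord, 7 members (15.9%) were higher in aged mice with only the groups compared or with array weights, against 2.63% and 4.13% of all genes. The count was 1 (2.27%) with all probes averaged or with probes ending in _x_at or _s_at used last, against 0.371% and 0.504%. In injured cord, the 10 higher and 2 lower became 6 and 1 without a cutoff (13.6% and 2.27%, against 1.76% and 1.88% of all genes). They became 4 and 0 with all probes averaged (9.09% and 0%, against 2.45% and 2.93%). With array weights they were 11 and 5 (25% and 11.4%, against 7.36% and 9.51%). With only the groups compared they were 0 and 0, as over all genes. The count lower was 4 with quantile normalization (9.09%, against 4.86% of all genes). It was 1 (2.27%) with median centring or without a trend, against 3.82% and 4.31%. For the interaction, 0 members were positive without a cutoff, with median centring, with all probes averaged, with _x_at and _s_at probes last and without a trend, against at most 0.114% of all genes. With quantile normalization 2 were negative (4.55%, against 0.371%). With array weights 2 were positive and 2 negative (4.55% each, against 3.24% and 4.62%). Without both injured replicates numbered 2, an alternative chosen after seeing the data, 5 members were lower in aged injured cord (11.4%, against 7.83% of all genes). In it 2 interactions were negative (4.55%, against 0.856%). With each array left out in turn, the count higher in aged injured cord ranged from 2 to 17 and lower from 1 to 4, positive interactions from 0 to 1 and negative ones from 0 to 2, and the median age difference in intact cord from 0.042 to 0.089, in injured cord from 0.11 to 0.26 and for the interaction from 0.05 to 0.21. Over all genes, with each array left out in turn, 1.1% to 11.6% were higher and 1.41% to 17.5% lower in aged injured cord. Positive interactions ranged from 0% to 2.36% of all genes and negative ones from 0.0476% to 2.69%. With array weights the median of the members was 0.095 in injured cord and 0.082 for the interaction. Averaging all probes reversed 7 values: Ids in young mice (0.17), Atp6v1h in young (1.06) and aged mice (1.12), Smpd1 (0.0038) and Neu1 (-0.0066) in aged mice, and Neu1 (-0.030) and Laptm5 (-0.19) between the injured groups. This average includes probes under the cutoff in every group. The cause of the other changes was not tested.

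Replicate numbers were not taken as pairs in the main fit. Deviations were compared only between samples with the same number, so they do not decide whether the numbers mark pairs. They correlated at -0.113 to 0.667 over 18 pairs. The 2 above 0.1 were between young and aged injured arrays, at 0.595 for replicate 1 and 0.667 for replicate 2, against 0.0145 for replicate 3. With a replicate block, 10 members were higher and 1 lower in aged injured cord (22.7% and 2.27%, against 4.86% and 5.05% of all genes). In that fit 0 interactions were positive and 1 negative (0% and 2.27%, against 0.0666% and 0.143%). Signals under 50 limit what can be read of Galns, Naglu, Cln3, Atp6v0d2 and Tfeb in intact cord.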

Other observations

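Other probes of the same genes gave a second reading of the rise after SCI. Among members called higher at both ages, 12 had a total of 20 other probes with every group mean above 50, as had the probe used. The change after SCI was larger on the other probe than on the probe used for 16 of the 20 in young and 18 in aged mice, by a median of 0.31 and 0.44 on the log2 scale. Between the injured groups, 26 other probes of 16 such members had both means above 50, and all 26 had a higher mean in aged mice, with a median of 0.39 against 0.26 for the probes used. These probes share arrays and genes and are not independent, and no test was made.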
